A study of Mus musculus with 18 samples.

Results

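The 10 genes described here form the hormone-controlled sodium uptake route of the distal colon: the kinase genes Sgk1, Wnk1, Wnk4, Stk39 (SPAK) and Oxsr1 (OSR1), the epithelial sodium channel genes Scnn1a, Scnn1b and Scnn1g, the ubiquitin ligase gene Nedd4l, and Hsd11b2. Members were the probe sets whose platform gene symbol was exactly one of these names, which gave 19 of the 45101 probe sets on the array. RNA from the distal colon of mice was read on Affymetrix arrays at 6 times of day, 3 arrays per time and 18 in all, lettered a, b and c within a time. All mice had been kept for 2 weeks in 12 h of light (from 7 in the morning) and 12 h of dark, with food freely available. The colon was cut out just above the anus at 8am, 12pm and 4pm in the light and at 8pm, 12am and 4am in the dark, which are 1, 5, 9, 13, 17 and 21 h after lights on. Strain, sex and age were not given in the sources used here, nor whether an array stands for 1 mouse or a pool. Every p below therefore sets a difference or a curve against the spread between these arrays, which may not be that between mice. The question the design poses is which transcripts vary over the day.

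Sodium in the distal colon enters the surface cells through the epithelial sodium channel, whose entry step limits uptake, and leaves them through the sodium pump. Aldosterone acts through the mineralocorticoid receptor to induce the kinase SGK1, which phosphorylates the ligase NEDD4-2 (the product of Nedd4l) and so keeps it from removing the channel from the membrane, while the enzyme encoded by Hsd11b2 inactivates glucocorticoids that would otherwise occupy the same receptor. WNK kinases sense chloride and activate SPAK and OSR1, which in turn phosphorylate sodium and chloride cotransporters.

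Of the 15 tested member probe sets, 3 passed the test of any difference between the 6 times, the Wnk4 set and 2 Wnk1 sets. Of all tested probe sets, 12.9% passed it. No member passed the test for a 24 h curve. The Wnk4 signal was highest at 4pm, where all 3 arrays lay above the other 15, and lowest at 4am, 3.45-fold lower. The share of all tested sets with 1 time above all others was not computed. At 4pm and at 4am, 2 of the 3 arrays had poor RNA quality. Without all 4 such arrays the 4pm minus 4am log2 difference went from 1.79 to 0.97, with 1 array left at each time. Wnk4 then no longer passed the test of any difference. Its 4pm minus 4am contrast had not passed with all 18 arrays (adjusted p = 0.0799). Wnk1 1433676_at read higher in all 4 arrays of poor RNA quality than in the other 14, and Wnk1 1437888_at read lower. These sets correlated at -0.56 over the 18 arrays and at 0.31 over the 14 not of poor RNA quality. The remaining tested Wnk1 set did not pass. Wnk1 1433676_at passed in 24 of 27 alternative fits. It no longer passed when an 8pm array was left out, whichever it was. The Sgk1 signal had its highest time mean at 8pm, just after lights off, 2.07-fold above 8am, and this difference did not pass the test. The time means of Hsd11b2 spanned the least among the tested member sets, with all 18 arrays included. Its readings in the 4 arrays of poor RNA quality all lay outside the range of the other 14. How many of all tested sets put these 4 arrays apart, as for Wnk1 and Hsd11b2, was not computed.

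Sequence around transcript starts was available for 7 members, in 12 windows that each span 250 bases before to 50 bases after a RefSeq transcript start (build GRCm38.p6). Scnn1a, Nedd4l and Hsd11b2 had no window. Each window was searched on both strands for 3 motifs tied to daily or steroid control: the E-box CACGTG, bound by clock activators, the D-box TTATGTAA, bound by the DBP family, and the glucocorticoid response half-site AGAACA, which the mineralocorticoid receptor also binds. The E-box was in 1 of the 12 member windows, against 7.15% of all 32851 windows of the same length. The D-box was in 0, against 0.938%, and the half-site was in 3, against 19%. All of these matches lay in windows of Sgk1, which has 6. A pair of Sgk1 windows and the Wnk4 window are shown because those genes had the smallest p in the 24 h fit, with motif matches in capitals, the 250 bases before the start only, and the coding strand (+) in each. That p does not choose among the 6 Sgk1 windows. The first one shown is the window with the E-box, and the other Sgk1 windows with a half-site are not shown.
Sgk1, chr10:21993640-21993889: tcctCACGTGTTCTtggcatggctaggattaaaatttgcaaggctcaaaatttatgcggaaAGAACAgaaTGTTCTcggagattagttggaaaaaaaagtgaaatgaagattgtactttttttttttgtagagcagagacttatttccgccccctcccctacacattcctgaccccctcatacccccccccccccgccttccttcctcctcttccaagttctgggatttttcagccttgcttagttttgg
Sgk1, chr10:21994416-21994665: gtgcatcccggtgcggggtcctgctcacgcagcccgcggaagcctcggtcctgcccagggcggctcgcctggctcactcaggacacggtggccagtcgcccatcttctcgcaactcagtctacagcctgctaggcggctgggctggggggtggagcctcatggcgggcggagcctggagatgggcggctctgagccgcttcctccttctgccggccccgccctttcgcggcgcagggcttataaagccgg
Wnk4, chr11:101260317-101260566: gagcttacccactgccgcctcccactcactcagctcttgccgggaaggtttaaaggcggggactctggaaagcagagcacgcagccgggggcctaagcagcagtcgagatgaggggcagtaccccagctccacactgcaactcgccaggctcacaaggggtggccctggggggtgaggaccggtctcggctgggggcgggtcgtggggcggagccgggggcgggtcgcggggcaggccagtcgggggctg
In the first Sgk1 window the E-box began at position -246 from the start and a half-site on the opposite strand at -242, so that these matches share 2 bases. At -189 a half-site AGAACA was followed, after 3 bases, by its reverse complement TGTTCT. This mirrored arrangement, which was searched for after the sequence had been seen, was in 3 of the 32851 windows (0.00913%). It lay 965 bases upstream of the start that belongs to the second Sgk1 window and downstream of 4 other Sgk1 starts, and whether it is in an exon or an intron of those transcripts was not examined. The second Sgk1 window and the Wnk4 window held none of the motifs within the 300 bases searched. A match is a stretch of letters, and no binding was measured here.

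The deposited signals are linear, scaled by the authors to the same mean in each array, and tests used log2(signal + 16). Probe sets with a mean log2 level under 7.10 were not tested, which left 27022 probe sets and 15 of the 19 members, from 9 genes. The 4 not tested were the only Scnn1g probe set, 1419079_at (mean log2 6.68), Stk39 1431434_at (6.98), Nedd4l 1456044_at (6.96) and Nedd4l 1423270_at (5.93). The tested members just inside the limit were Nedd4l 1441305_at (7.31) and Nedd4l 1437400_at (7.37). Different probe sets bind with different strength, so a signal is compared only with the same probe set in other arrays.

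Among the arrays, 4 stood apart in RNA quality. The ratio of the 3′ to the 5′ signal of Gapdh, which increases when RNA is degraded or copied incompletely, was between 0.746 and 1.12 in 14 arrays, against 34.3 (4pm b), 2.33 (4pm c), 36 (4am a) and 18.2 (4am b). The 4pm and the 4am group each held 2 of them, so values without these 4, or the readings of these 4, are given where they matter. All 8 colonocyte markers were above the limit in mean level, with a summed signal of 79241 to 122943. Smooth muscle markers (5 of 5 tested) summed to 20252 to 60232, leukocyte markers (4 of 5) to 3058 to 8031 and anal squamous markers (4 of 7) to 795 to 2106. Enteric neuron markers (3 of 4) summed to 638 to 1174 and endothelial markers (3 of 3) to 570 to 1483. Adipocyte markers (2 of 4) summed to 8509 in 4am a and to 761 to 2907 in the other 17 arrays. In bulk samples of the whole wall, fewer cells of a type and less RNA per cell cannot be told apart.

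**Figure D1:**
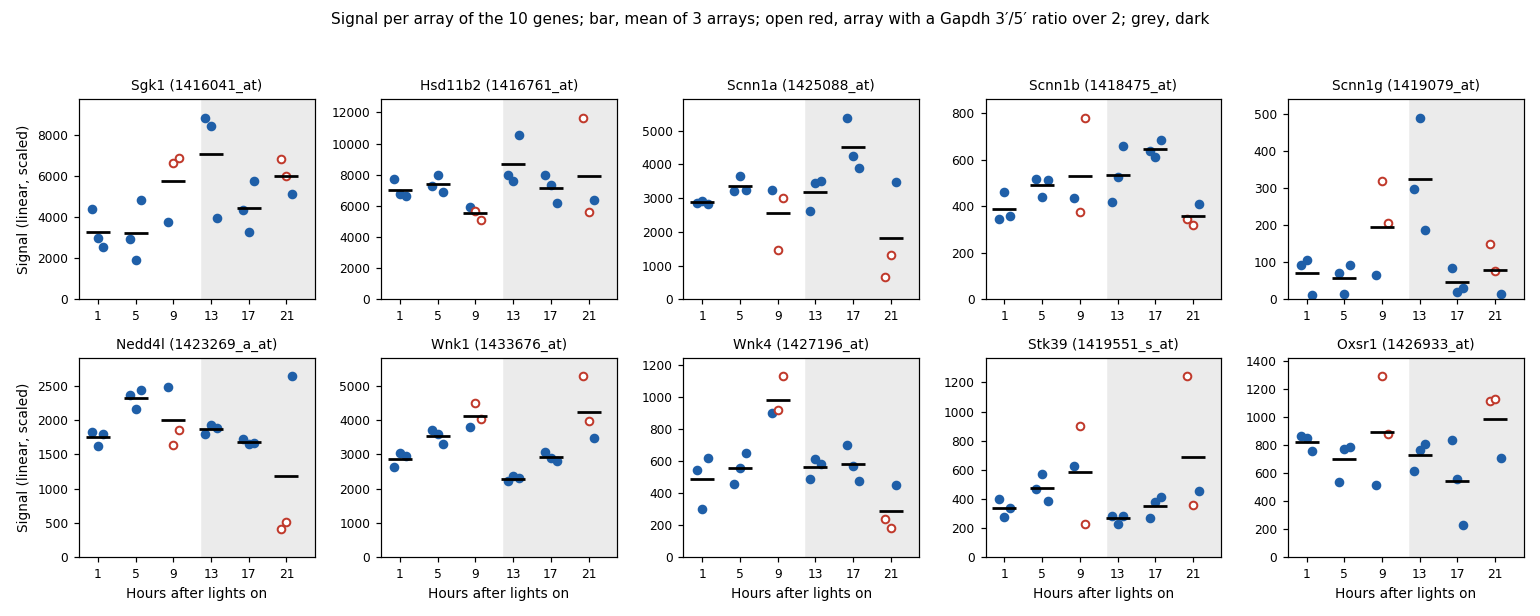
Signal of each array (points, linear scale) against hours after lights on for the probe set of highest mean level of each of the 10 genes; bars are means of 3 arrays, grey marks the dark, and open red points are the 4 arrays with a Gapdh 3′ to 5′ ratio of 2.33 or more. The 3 Wnk4 points at 4pm (901 to 1136) lie above all others, and the lowest Scnn1a points (661 to 1466) and Nedd4l points (410 and 522) are all open.

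Sgk1, the aldosterone-induced kinase, was measured by 1 probe set. Its signals, in the order a, b and c, were 4373, 2961 and 2534 in the 8am arrays, 2920, 1909 and 4813 in the 12pm arrays and 3780, 6632 and 6872 in the 4pm arrays. In the dark they were 8842, 8441 and 3933 in the 8pm arrays, 4338, 3268 and 5734 in the 12am arrays and 6847, 6011 and 5098 in the 4am arrays. The 2 highest of all arrays were at 8pm and the lowest was at 12pm, but 8pm c, at 3933, lay within the range at 8am. Ordered by mean log2 level the times were 8pm, 4am, 4pm, 12am, 8am and 12pm, from 12.70 ± 0.65 to 11.56 ± 0.66 (SD, n = 3), and the arrays of neighbouring times in that order overlapped.

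The 24 h curve for Sgk1 had an amplitude of 0.46 ± 0.17 (SE, log2), a peak-to-trough ratio of 1.89 and its highest point at 14.5 h after lights on. Its adjusted p was 0.999 (limma), at rank 743 of 27022. The mean at 8am was lower than that at 8pm by a log2 difference of -1.05 ± 0.37 (adjusted p = 1). The difference was -0.84 without 8pm a and -1.43 without 8pm c, the array that overlapped 8am. Light minus dark was -0.56 ± 0.21 (adjusted p = 0.808). The curve was as large in the 14 arrays of low Gapdh ratio, where the amplitude was 0.46 ± 0.15 with a peak at 14.4 h (adjusted p = 0.824). With arrays weighted by their fit, an alternative added after the data had been seen, 8am minus 8pm was -1.32 ± 0.27 and passed (adjusted p = 0.0181). The summed colonocyte markers overlapped between 8am (105386 to 118171) and 8pm (104707 to 122943), as did the leukocyte markers (3058 to 4763 and 3338 to 5205). The anal squamous markers did not overlap (795 to 1010 at 8am and 1031 to 1102 at 8pm), and their part in the difference was not tested.

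The genes whose signal was most like that of Sgk1 across the 18 arrays, among 12869 compared, were Epha7 (Pearson r = 0.87), Hykk (0.81) and Zfp46 (0.79). In the 14 arrays of low ratio these were 0.86, 0.80 and 0.75. The points share scaling and RNA quality, and these values are descriptions.

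The channel has an alpha, a beta and a gamma subunit, encoded by Scnn1a, Scnn1b and Scnn1g. Scnn1a signals were 2866, 2919 and 2831 in the 8am arrays, 3225, 3651 and 3226 in the 12pm arrays and 3236, 1466 and 3016 in the 4pm arrays. In the dark they were 2623, 3436 and 3520 in the 8pm arrays, 5391, 4259 and 3883 in the 12am arrays and 661, 1315 and 3465 in the 4am arrays. The 3 lowest readings came from 4pm b, 4am a and 4am b, 3 of the 4 arrays with a high Gapdh ratio. The 3 readings at 12am were the highest of all 18, and all lay above those at 12pm. Between these times the summed colonocyte markers overlapped (81576 to 95047 at 12pm and 90494 to 105458 at 12am), while the adipocyte markers did not (1834 to 2907 and 1308 to 1633), and their part was not tested. The difference of 12pm minus 12am was -0.41 ± 0.42 (adjusted p = 0.868), and in the 14 arrays of low ratio it was -0.41 ± 0.15 (adjusted p = 0.181). The test of any difference gave Scnn1a an adjusted p of 0.0931, which was 0.00107 without 4am c, where 47.7% of all sets passed and the 4am group was left with its 2 arrays of high ratio. The 4pm minus 4am difference of 0.74 ± 0.42 became -0.10 ± 0.26 in the 14 arrays, where each of these times is left with 1 array that is assumed to vary like the others. Its 24 h amplitude was 0.26 ± 0.22.

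Scnn1b, the beta subunit, read 345, 460 and 358 in the 8am arrays, 516, 440 and 511 in the 12pm arrays and 435, 374 and 781 in the 4pm arrays. In the dark it read 418, 525 and 659 in the 8pm arrays, 638, 612 and 684 in the 12am arrays and 343, 321 and 408 in the 4am arrays. As for Scnn1a, each array at 12am read above every array at 12pm, and the time mean was highest at 12am (9.37 ± 0.08) and lowest at 4am (8.54 ± 0.17, SD, n = 3). The 2 lowest readings, 343 and 321, came from 4am a and 4am b, arrays of high Gapdh ratio. The other 4am array, 4am c (408), lay above 8am a (345) and 8am c (358). The highest single reading, 781, came from 4pm c, also of high ratio. The 12pm minus 12am difference was -0.39 ± 0.26 (adjusted p = 0.749). The 24 h amplitude was 0.29 ± 0.12 with a fitted peak at 12.6 h (adjusted p = 0.999), and 0.24 ± 0.10 at 14.5 h in the 14 arrays of low ratio. The adjusted p for any difference was 0.131.

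Scnn1g, the gamma subunit, was near the bottom of the scale and was not part of the main test. It read 92.8, 107 and 11.2 in the 8am arrays, 69.5, 13.1 and 91.2 in the 12pm arrays and 65.2, 319 and 205 in the 4pm arrays. It read 299, 491 and 187 in the 8pm arrays, 84.9, 20.7 and 30 in the 12am arrays and 150, 74.9 and 15.3 in the 4am arrays. Each array at 8pm read above every array at 8am, 12pm, 12am and 4am, and the 8pm and 4pm arrays overlapped. Among the tested sets, which leave out Scnn1g, 7.98% had every 8am array below every 8pm array. Shares for 8pm against the other times were not computed. With every probe set tested and no lower limit, Scnn1g had 8am minus 8pm of -2.16 ± 0.72 (adjusted p = 0.807), a 24 h amplitude of 0.98 ± 0.33 with a peak at 11.3 h (adjusted p = 0.999), and an adjusted p for any difference of 0.0779. Detection calls were not used here, so how much of these signals is background is unknown.

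Nedd4l, whose ligase marks the channel for removal, had 6 probe sets, of which 4 were tested. The brightest, 1423269_a_at, read 1831, 1626 and 1796 in the 8am arrays, 2370, 2169 and 2442 in the 12pm arrays and 2487, 1638 and 1863 in the 4pm arrays. In the dark it read 1805, 1925 and 1881 in the 8pm arrays, 1727, 1645 and 1663 in the 12am arrays and 410, 522 and 2647 in the 4am arrays. All 3 arrays at 12pm lay above those at 12am, while the 4am group held the 2 lowest readings and the highest of all 18. The 2 lowest came from 4am a and 4am b, the arrays with Gapdh ratios of 36 and 18.2.

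The 4pm minus 4am difference for Nedd4l 1423269_a_at was 1.22 ± 0.44 (adjusted p = 0.246), and it was -0.09 ± 0.21 in the 14 arrays of low ratio. There, 12pm minus 12am was 0.47 ± 0.12 (adjusted p = 0.0838) against 0.47 ± 0.44 in all 18, and the test of any difference passed (adjusted p = 0.0215, against 0.146 in all 18). Without 4am c the same test gave an adjusted p of 1.26e-05, with 47.7% of all sets passing. The sign at 4 o'clock and the call for any difference changed with the arrays included. The 24 h amplitude was 0.51 ± 0.19 with a peak at 8.2 h (adjusted p = 0.999), and 0.18 ± 0.10 in the 14 arrays. The other 3 tested sets, 1437400_at, 1441305_at and 1457374_at, had amplitudes of 0.16, 0.08 and 0.03, and adjusted p values for any difference of 0.277, 0.11 and 0.261. Across the 18 arrays 1423269_a_at correlated with 1441305_at at -0.46 and across the 14 at 0.72. With 1437400_at these values were 0.31 and -0.27, and with 1457374_at 0.45 and 0.21.

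Wnk4 encodes a kinase that acts on the channel and on chloride-coupled sodium transport, and its mutation causes inherited hypertension with high potassium. Its signals were 549, 303 and 620 in the 8am arrays, 460, 556 and 655 in the 12pm arrays and 901, 920 and 1136 in the 4pm arrays. They were 492, 615 and 586 in the 8pm arrays, 702, 573 and 479 in the 12am arrays and 243, 183 and 452 in the 4am arrays. The order of the times was 4pm, 12am, 8pm, 12pm, 8am and 4am. The 4pm group stood clear of every other array, the 4 middle times overlapped one another with means between 8.92 and 9.21, and the 4am group (8.17 ± 0.63, SD, n = 3) overlapped 8am. The mean at 4pm was 9.96 ± 0.18 (SD, n = 3).

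Wnk4 passed the test of any difference (adjusted p = 0.0241). For 4pm minus 4am it had a log2 difference of 1.79 ± 0.31, 3.45-fold. Its adjusted p was 0.0799, ranging from 0.000104 to 1 over the alternatives, and the difference passed in 4 of 27: with 1 probe set per gene (0.0361), with array weights (0.00713), without 8am b (0.0444) and without 4am c (0.000104). Leaving out 4am c left the 4am group with only its arrays of high Gapdh ratio, and 23.8% of all sets then passed. The array weights gave 4am c, whose Gapdh ratio was 0.75, the lowest weight of all, 0.145, and 10.4% passed. It ranked 8th of 27022 by p in that contrast. The contrasts at the other hours were -0.25 ± 0.31 for 8am minus 8pm and -0.07 ± 0.31 for 12pm minus 12am. The difference at 4 o'clock exceeded that at 8 o'clock by 2.04 ± 0.44, with an adjusted p of 0.264. The 24 h curve had an amplitude of 0.63 ± 0.15, a peak-to-trough ratio of 2.4 and a peak at 9.55 h, with adjusted p = 0.999 at rank 47 of 27022. Light minus dark was 0.49 ± 0.18 (adjusted p = 0.808), and without 4am c it was 0.61 and passed (0.0306), as did 5.56% of all sets.

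At both times, 2 of the 3 Wnk4 readings came from arrays of high Gapdh ratio: 920 and 1136 in 4pm b and 4pm c, and 243 and 183 in 4am a and 4am b. Among the 14 other arrays, 4pm a (901) was still the highest, while 4am c (452) lay above 8am b (303). In those arrays 4pm minus 4am was 0.97 ± 0.42 (adjusted p = 1), the amplitude was 0.27 ± 0.14, and any difference no longer passed (adjusted p = 0.342). Without 4pm b, 4am a and 4am b it did not pass either (0.0759). Summed colonocyte markers overlapped between 4pm (79241 to 86314) and 4am (79271 to 122923), while endothelial markers did not (975 to 1247 and 570 to 814). The part of RNA quality and of cell makeup in the difference was not tested beyond these values.

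Wnk1, the broadly expressed WNK kinase upstream of SPAK and OSR1, had 3 tested probe sets, and these differed from one another. The brightest, 1433676_at, read 2629, 3028 and 2945 in the 8am arrays, 3715, 3586 and 3305 in the 12pm arrays and 3798, 4503 and 4030 in the 4pm arrays. It read 2225, 2365 and 2305 in the 8pm arrays, 3068, 2895 and 2815 in the 12am arrays and 5294, 3981 and 3475 in the 4am arrays. The 3 arrays at 8pm were the lowest of all 18 and agreed closely (SD 0.04 on the log2 scale), and the time means spanned 1.82-fold. It passed the test of any difference (adjusted p = 0.0214), and in the 14 arrays of low ratio as well (0.0155). It missed the threshold without 8pm a (0.0583), 8pm b (0.051) or 8pm c (0.0523). Its 24 h amplitude was 0.17 ± 0.12 (adjusted p = 0.999).

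The dimmer set 1437888_at also passed the test of any difference (adjusted p = 0.0429). It read 427, 550 and 507 in the 8am arrays, 453, 382 and 267 in the 12pm arrays and 281, 74.2 and 76.6 in the 4pm arrays. It read 237, 226 and 324 in the 8pm arrays, 323, 239 and 351 in the 12am arrays and 104, 107 and 332 in the 4am arrays. All 4 arrays of high Gapdh ratio (74.2 to 107) lay below the other 14 (226 to 550), whereas for 1433676_at all 4 (3981 to 5294) lay above the other 14 (2225 to 3798). The share of all sets that separate these arrays was not computed. Over 18 arrays these Wnk1 sets correlated at -0.56, and over the 14 at 0.31. Without the 4 arrays the adjusted p of 1437888_at was 0.0977, and it passed in 7 of 26 alternatives. It was highest at 8am, and 8am minus 8pm was 0.88 ± 0.44 (adjusted p = 1), with 0.88 ± 0.23 in the 14 arrays (adjusted p = 0.308).

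The third Wnk1 set, 1436746_at, read from 502 in 4am a to 4930 in 8am a, with a median of 3235, and did not pass (adjusted p = 0.279). In each of the 3 Wnk1 sets every array at 8am read above every array at 8pm. Those differences were 0.32, 0.57 and 0.88 on the log2 scale, each with an adjusted p of 1. Epithelial sodium transport in the kidney also involves a short Wnk1 transcript without the kinase domain, and which transcripts these sets detect was not examined.

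**Figure D2:**
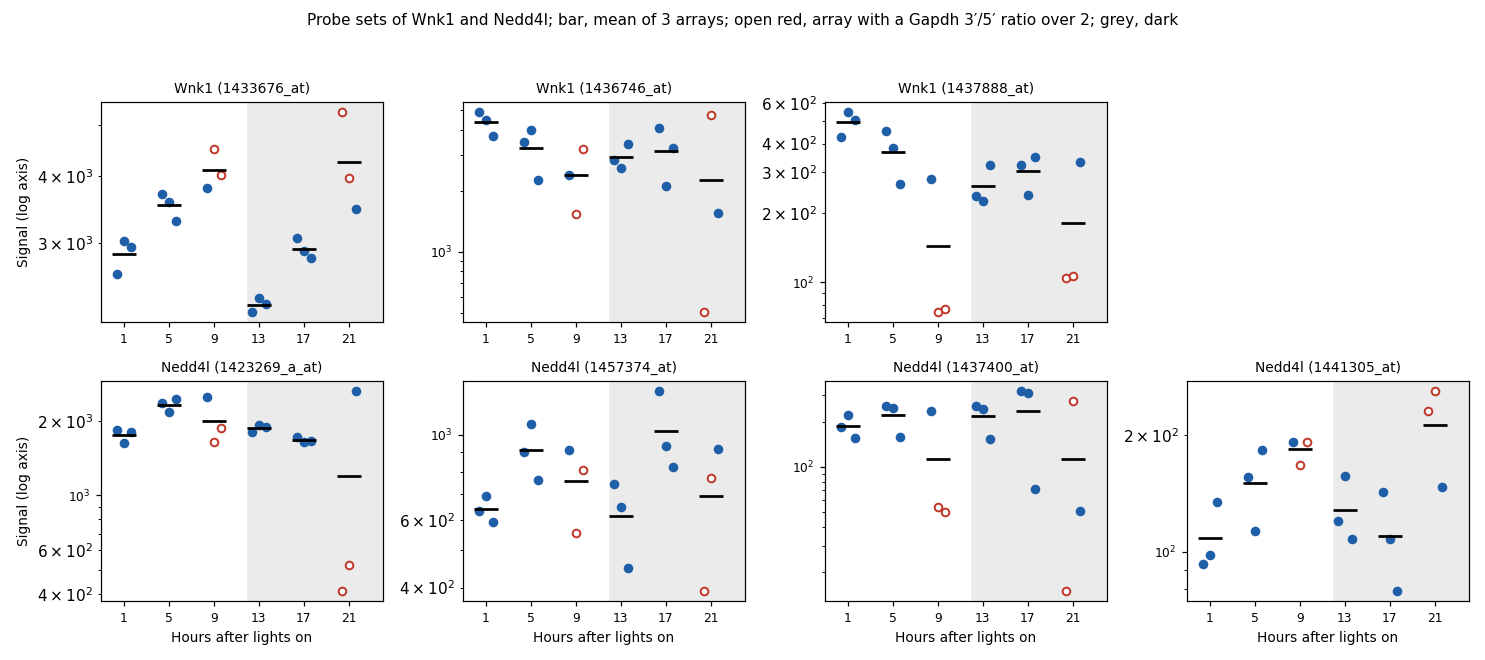
Signal per array (points, log axis) against hours after lights on for the 3 tested Wnk1 and the 4 tested Nedd4l sets; bars are means of 3 arrays, grey marks the dark and open red points are the 4 arrays of high Gapdh ratio. For Wnk1, the open points are the highest readings of 1433676_at (3981 to 5294) and the lowest of 1437888_at (74.2 to 107).

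Pooled over times 12 h apart, with 6 arrays each, the median signal of Wnk1 1433676_at was 2497 for 8am and 8pm, 3187 for 12pm and 12am, and 4006 for 4pm and 4am. Within the first 2 of these pairs the arrays did not overlap, with 8am above 8pm and 12pm above 12am. Of the 6 arrays behind 4006, 4 had a high Gapdh ratio (3981 to 5294), and the others, 4pm a and 4am c, read 3798 and 3475, beside 3305 to 3715 at 12pm. Summed cell type markers also differed between these pairs. The colonocyte medians were 110512 and 113316 at 8am and 8pm, 92117 and 104782 at 12pm and 12am, and 79261 and 88136 at 4pm and 4am. Anal squamous markers summed to 795 to 1102 at 8am and 8pm and to 1443 to 2106 at 12pm and 12am. At 4pm they summed to 1006 to 1525 and at 4am to 984 to 1472. Their part in the Wnk1 values was not tested.

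Stk39 and Oxsr1 encode SPAK and OSR1, the kinases that WNKs switch on. Stk39 1419551_s_at read 402, 278 and 341 in the 8am arrays, 469, 574 and 387 in the 12pm arrays and 625, 904 and 229 in the 4pm arrays. It read 285, 231 and 287 in the 8pm arrays, 267, 381 and 413 in the 12am arrays and 1246, 360 and 458 in the 4am arrays. Its highest and lowest readings both came from arrays of high Gapdh ratio, 4am a and 4pm c, and the readings within 4pm and within 4am were far apart. The amplitude was 0.22 ± 0.20 and the adjusted p for any difference 0.268. A second set, 1419550_a_at, ranged from 167 to 434 (adjusted p = 0.319).

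Oxsr1 read 864, 850 and 759 in the 8am arrays, 540, 769 and 789 in the 12pm arrays and 512, 1293 and 879 in the 4pm arrays. It read 616, 767 and 809 in the 8pm arrays, 832, 558 and 231 in the 12am arrays and 1112, 1130 and 709 in the 4am arrays. The 4 arrays of high ratio (879 to 1293) were the 4 highest. The amplitude was 0.20 ± 0.17 and the adjusted p for any difference 0.321.

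Hsd11b2, the enzyme that guards the mineralocorticoid receptor from glucocorticoids, gave 7750, 6746 and 6604 in the 8am arrays, 7292, 7989 and 6867 in the 12pm arrays and 5903, 5646 and 5093 in the 4pm arrays. It gave 7988, 7589 and 10568 in the 8pm arrays, 7952, 7358 and 6189 in the 12am arrays and 11671, 5622 and 6357 in the 4am arrays. Its time means spanned 1.56-fold, from 12.44 ± 0.11 at 4pm to 13.08 ± 0.26 at 8pm (SD, n = 3), the narrowest span among the 15 tested sets. The amplitude was 0.11 ± 0.11 (adjusted p = 0.999), light minus dark was -0.23 ± 0.13 (adjusted p = 0.808), and the adjusted p for any difference was 0.296.

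Set against the whole array, the members had calls in 1 test, that of any difference. Each of the 15 sets is 6.67% of them. The 24 h curve called 0 of the 15 member sets and 0.0111% of all 27022, and 2 members (Wnk4 and Sgk1) had an unadjusted p under 0.05, against 3.1%. Their median amplitude was 0.20 and that of all tested sets 0.19. Any difference between times called 3 of 15, the Wnk4 set and 2 Wnk1 sets, against 12.9%, and 6 of 15 without adjustment, against 38.9%.

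Light minus dark called 0 of 15 members, against 0%, and 2 without adjustment (Wnk4 and Sgk1), against 5.53%. The median difference was 0.09 in the members, 11 of 15 above 0, and 0.01 over all sets. Those above 0 include every tested set of Wnk1 and of Nedd4l, and the share of all sets above 0 was not computed. The 8am minus 8pm contrast called 0, against 0.0037%, and 1 without adjustment (Sgk1), against 2.58%. The 12pm minus 12am contrast called 0, against 0.0074%, and 0 without adjustment, against 7.46%. The 4pm minus 4am contrast called 0, against 0.0185%, and 2 without adjustment (Wnk4 and Nedd4l 1423269_a_at), against 15.5%. The joint test of these 12 h contrasts called 0, against 0.0296%, and 2 without adjustment (Wnk4 and Sgk1), against 8.7%.

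Counted by arrays that do not overlap, 8am lay above 8pm in 3 member sets, all of Wnk1 (6.63% of all sets), and below in 0 (7.98%). At 12pm the arrays lay above those at 12am in 2, Wnk1 1433676_at and Nedd4l 1423269_a_at (10.6%), and below in 2, Scnn1a and Scnn1b (9.97%). At 4pm they lay above 4am in 1, Wnk4 (4.84%), and below in 0 (2.19%). No such share was computed for 1 time against all others (Wnk4 at 4pm, Wnk1 1433676_at at 8pm, Scnn1a at 12am). Nor was one computed for the 4 arrays of high Gapdh ratio against the other 14. The member medians were -0.10 for 8am minus 8pm, 0.05 for 12pm minus 12am and -0.03 for 4pm minus 4am, beside -0.02, -0.03 and 0.11 over all sets.

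**Figure D3:**
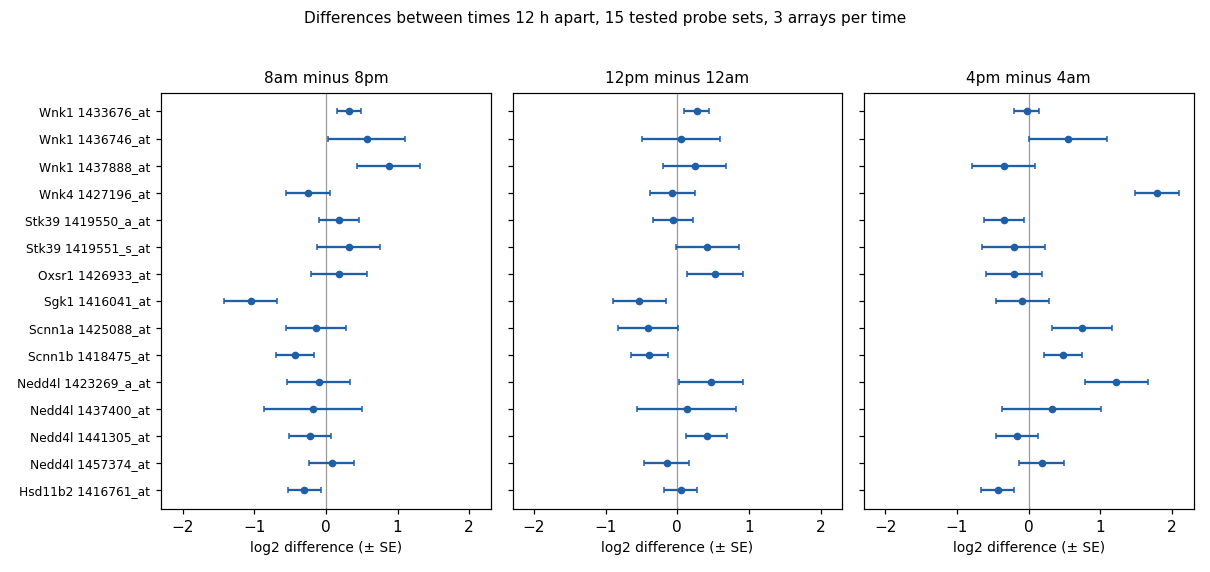
Log2 differences between times 12 h apart (points, ± SE, 3 arrays per time) for the 15 tested member sets, with 1 panel per contrast and a line at 0. Wnk4 at 4pm minus 4am (1.79) is the largest difference, and Sgk1 at 8am minus 8pm (-1.05) is the most negative.

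**Figure D4:**
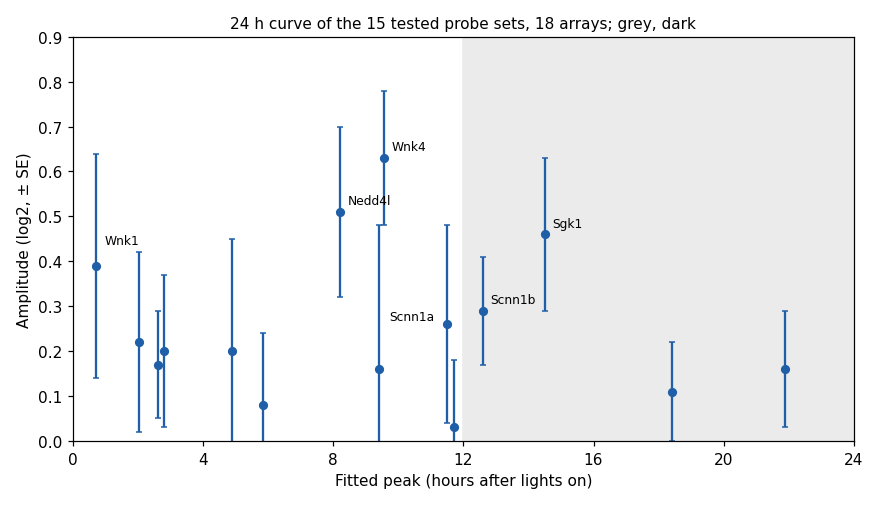
Amplitude of the fitted 24 h curve (log2, ± SE, 18 arrays) against its peak in hours after lights on for the 15 tested member sets, with those of 0.25 or more named; grey marks the dark. The fitted peak is after lights on for Wnk1 1437888_at (0.702 h) and late in the light for Nedd4l and Wnk4 (8.2 and 9.55 h). It is near lights off for Scnn1a and Scnn1b (11.5 and 12.6 h) and early in the dark for Sgk1 (14.5 h). None passed the test. The Scnn1a amplitude was 0.26 ± 0.22, and its time mean was highest at 12am (17 h), away from the fitted peak. Without the 4 arrays of high Gapdh ratio the amplitudes of Nedd4l and Wnk4 were 0.18 and 0.27.

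Other genes of the route were taken from 4 lists, with 1 probe set per gene. In none of the lists did a gene pass the 24 h test or a contrast, and those named next passed the test of any difference. Of the steroid receptors and their targets 1 of 9 passed, Hsd11b1 (adjusted p = 0.0137), which regenerates active glucocorticoid and read 69.6 to 149 at 8pm and 361 to 828 at 4am. Its 2 highest readings at 4am, 828 and 560, came from the arrays of high Gapdh ratio, and 828 from 4am a, the array with the high adipocyte sum. Fkbp5, a steroid-induced chaperone, had an adjusted p of 0.0564 and Fxyd4, an aldosterone-induced regulator of the sodium pump, 0.0648.

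Of the channel proteases and their inhibitors 1 of 6 passed, Prss8 (0.0433), the protease prostasin that activates the channel. It read 182, 322 and 846 at 4am and between 759 and 1214 elsewhere, and the 2 low values came from the 4am arrays of high Gapdh ratio. Of the kinases and ubiquitin enzymes 2 of the 14 tested passed, from a list of 16. Pdpk1 (0.0158), the kinase that activates SGK1, read 3306, 3490 and 3315 at 8am and 3249, 2832 and 3063 at 8pm, and 1057 to 1489 at 12pm and 12am. It read 1534, 2454 and 2019 at 4pm and 3434, 4440 and 1544 at 4am, where the 2 high readings came from the arrays of high ratio.

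Usp2, a clock-driven deubiquitinase linked to the channel, was the other (0.0223). It read 1603, 1693 and 1215 at 8pm and 393 to 697 at 8am and 12pm, with a 24 h amplitude of 0.60 ± 0.15 and a peak at 13.6 h (adjusted p = 0.999), beside 14.5 h for Sgk1. At 4pm it read 631 in 4pm a, and 1259 and 1304 in 4pm b and 4pm c, the arrays of high Gapdh ratio. Of the other sodium transport genes 1 of the 8 tested passed, from a list of 10: Slc12a2 (0.0483), the basolateral sodium, potassium and chloride cotransporter that SPAK and OSR1 act on, with 3871, 5055 and 6093 at 12am and 10573, 10394 and 7173 at 4am. Its 2 highest readings came from 4am a and 4am b. The shares of these lists (1 of 9, 1 of 6, 2 of 14 and 1 of 8) stand beside 12.9% over the array.

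The genes most like the remaining members are given with r over 18 arrays and over the 14 of low ratio. Wnk4 was most like Ccdc120 (0.88 and 0.66), Nedd4l most like Rnf186 (0.97 and 0.64) and Scnn1a most like Ccnd3 (0.97 and 0.81). Wnk1 1433676_at was most like Septin2 (0.95 and 0.91), Stk39 most like Snx14 (0.93 and 0.80) and Oxsr1 most like Lipt1 (0.86 and 0.91). Scnn1b was most like 4933427D06Rik (0.88 and 0.84) and Hsd11b2 most like Hspe1 (0.77 and 0.81). These are descriptions over arrays that share scaling and quality.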

How the data were processed

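The authors deposited a linear signal intensity for each probe set in each array. The submitters' processing notes name GCOS, Affymetrix software, with no version. Trimmed by 2% at either end, the mean intensity of each array was 500, and no columns were identical. Detection calls and array images were not used here. Precision is limited by the 3 arrays per time. Gene names come from the platform annotation.

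Of 45101 probe sets, 64 controls were set apart. Values were log2(signal + 16), and probe sets with a mean at or above the 40th percentile (7.10) were tested. Groups were the collection times in the titles. limma 3.58.1 in R 4.3.3 fitted a cosine and sine of 24 h (15 residual degrees of freedom) and 6 time means (12), with a trend on the mean level. Contrasts came from the second fit. All tests are two-sided, adjusted by Benjamini-Hochberg over 27022 probe sets with a threshold of 0.05. The fits were tested on simulated data. Array letters were not used as pairs, since deviations of same-letter arrays correlated at -0.02 on average, over 0.1 in 6 of 45 pairs.

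Genes named are all member probe sets, list genes past a threshold and up to 2 others per list, and the genes most like a member. Members, lists, tests and this rule were chosen with earlier results of these data known. Alternatives changed the constant, normalization, filter, probe sets, pairing, array weights and arrays.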

Additional observations from a re-analysis of the deposited data

Results flagged for a closer look

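In 6 of the 38 groups examined (9 arrays in the light or in the dark, for each of the 19 member probe sets), the highest or lowest array lay far from the rest: its gap to the nearest array, as a share of the whole range, was above Dixon's critical value for 9 samples. For 9 values drawn from 1 normal distribution, chance gives about 1 such group in 20. Each group here pools several times of day and holds arrays of high Gapdh ratio. The groups also share the same arrays, so that rate need not hold for them. Values are log2(signal + 16).

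Wnk1 1436746_at was lowest in the dark in 4am a, at 9.02 (next array 10.61). Stk39 1419551_s_at was highest in the dark in the same array, at 10.3 (next 8.89). Stk39 1431434_at, an untested set, was lowest in the light in 4pm b, at 4.69 (next 6.90). Scnn1a was lowest in the light in 4pm b as well, at 10.53 (next 11.48). Scnn1b was highest in the light in 4pm c, at 9.64 (next 9.06). These 5 came from arrays with a high Gapdh 3′ to 5′ ratio. Oxsr1 was lowest in the dark in 12am c, at 7.95 (next 9.16), an array with a Gapdh ratio of 0.806.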

How the results depend on the processing

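The count of member sets called was 0 for the 24 h curve under all 28 alternatives and 0 for 12pm minus 12am under all 27. For 4pm minus 4am, Nedd4l 1423269_a_at and Scnn1a were called at positive differences with array weights (1.82 and 1.16) and without 4am c, and were at -0.09 and -0.10, not called, in the 14 arrays of low Gapdh ratio. Counts for any difference between times, 3 of 15 in the values above, ranged from 1 to 6 when 1 array was left out: 1 without 8pm a, 8pm b or 8pm c (5.35%, 5.87% and 5.67% of all sets, against 12.9%), and 6 without 4am c, where 47.7% of all sets passed. Leaving out 1 array gave 0 to 2 for light minus dark, 0 to 3 for 4pm minus 4am and 0 to 3 for the joint 12 h test, each highest without 4am c, where 5.56%, 23.8% and 12.4% of all sets passed. With array weights, added after seeing the data, the counts were 9 for any difference (55.6% of all sets), 2 for light minus dark (6.28%), 1 for 8am minus 8pm (1.28%), 3 for 4pm minus 4am (10.4%) and 4 for the joint test (9.75%). With 1 probe set per gene, 4pm minus 4am called 1 of 9, Wnk4. Without the 4 arrays of high Gapdh ratio, any difference called 2 (20.7%), Wnk1 1433676_at and Nedd4l 1423269_a_at. With the letter as a replicate block, any difference called 2 (Wnk1 1433676_at, adjusted p 0.035, and Wnk4, 0.027) and 9.65% of all sets, and no other count changed. Wnk1 1437888_at was then at 0.0565. With 3 arrays per time and an unknown background per probe set, dim members such as Scnn1g are the least certain. Where an alternative leaves 1 array at a time of day, that array is assumed to vary like the others.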
